A study of Mus musculus with 13 samples.

Results

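The SLC25 family comprises the carrier proteins that move metabolites across the inner mitochondrial membrane, and its transcripts were followed here in the left ventricle of mice after sham surgery or myocardial infarction (MI). Members were all gene entries of the deposited count table whose symbol is Slc25a followed by a number and nothing else. The table held 35793 gene entries with a unique symbol, of which 44 were members. Enough reads for testing were found for 37 of the 44. The 7 with too few were Slc25a2 (1 to 5 reads per library), Slc25a18 (0 to 8), Slc25a21 (0 to 1), Slc25a31 (0 to 8), Slc25a41 (0 to 1), Slc25a43 (1 to 4) and Slc25a48 (0 in every library).

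Mitochondrial carriers share a fold made of repeated pairs of membrane-spanning helices, and most exchange a solute of the matrix for a solute of the intermembrane space. In the heart, which makes nearly all of its ATP by oxidative phosphorylation, they export ATP in exchange for ADP, import phosphate, pass reducing equivalents inward through the malate-aspartate shuttle, and admit fatty acids as acylcarnitines. A few members work outside this scheme, such as the peroxisomal carrier Slc25a17 and the outer-membrane protein Slc25a46.

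RNA was sequenced from 13 libraries of C57BL/6JO1aHsd mice aged 8 to 10 weeks when treatment began. The sham group (n = 3) carried no treatment in the labels. The MI+IgG group (n = 5) had permanent ligation of the left anterior descending coronary artery (LAD) and a mouse IgG antibody at 10 mg/kg. The MI+FG-3149 group (n = 5) had the same ligation and FG-3149, an antibody that binds the matricellular protein CTGF (connective tissue growth factor), at 10 mg/kg. All 3 groups carry the time point 1W+6W, which the labels do not spell out. The RNA of the infarcted hearts came from the non-ischaemic left ventricle, so the scar itself was not sampled. The labels do not say whether replicates of a group are separate animals, and p-values then measure only the spread between these libraries.

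Library totals ran from 12025880 to 14999813 estimated reads in sham, 13084735 to 17567238 in MI+IgG and 10954922 to 12794823 in MI+FG-3149, so the infarcted groups did not overlap in depth. The share of the ribosomal RNA precursor Rn45s was 0.276 to 0.334% in sham, 0.673 to 1.936% in MI+IgG and 0.199 to 2.858% in MI+FG-3149. The median percentage of a transcript's reads that lay in its 5′ part (before the midpoint of the summed exons) was 40.89 to 41.84 in sham, 42.53 to 44.31 in MI+IgG and 44.2 to 45.7 in MI+FG-3149, over 2355 genes. Sham therefore stood apart from both infarcted groups in this measure. The defining cardiomyocyte markers were abundant in every library, with the summed level of 10 markers at 90930 to 100800, 82090 to 89750 and 85410 to 93230 CPM (counts scaled to library size) in the 3 groups in that order. By edgeR at an adjusted p under 0.05, 4 of these 10 were lower in MI+IgG than in sham and 0 higher. They were Myh6 (log2 fold change −0.42), Myl2 (−0.40), Tnni3 (−0.39) and Ryr2 (−0.37), 40.0% of the list against 15.9% of all genes. The other markers did not fall with them: in MI+IgG against sham 5 of the 10 had fold changes above 0, and the median was −0.0016 on the log2 scale. In MI+FG-3149 against sham 4 were lower (40.0%) and 1 higher (10.0%), against 13.9 and 15.6% of all genes. Fibroblast markers summed to 2621 to 2779 CPM in sham, 4191 to 6139 in MI+IgG and 3902 to 4503 in MI+FG-3149. Of these, 8 of 9 were higher than sham in each infarcted group (88.9%, against 17.8 and 15.6% of all genes). Macrophage markers summed to 290.3 to 301, 391.6 to 589 and 412 to 679 CPM. In the infarcted groups 5 of 6 and 6 of 6 were higher than sham (83.3 and 100%, against the same shares of all genes). No marker on these lists was at 0 in all libraries. In bulk tissue, fewer cells of a type and less RNA per cell cannot be told apart, and the part of cell composition, depth or read position in the differences below was not tested.

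Among members that the results turn on, the coenzyme A carrier Slc25a42 and the carnitine-acylcarnitine carrier Slc25a20 were lower in both infarcted groups than in sham. The orphan carrier Slc25a34 did not pass the test. Promoter sequences are shown for these 3. Each is the 200 bases that end 50 bases before the RefSeq transcript start, from RefSeq on build GRCm38.p6, 5′ to 3′ on the gene's strand. Capitals mark a match to AAGGTCA, the motif bound by oestrogen-related receptors (ERR), regulators of mitochondrial genes, which reads TGACCTT on the opposite strand.
Slc25a42, chr8:70212332-70212531, minus strand: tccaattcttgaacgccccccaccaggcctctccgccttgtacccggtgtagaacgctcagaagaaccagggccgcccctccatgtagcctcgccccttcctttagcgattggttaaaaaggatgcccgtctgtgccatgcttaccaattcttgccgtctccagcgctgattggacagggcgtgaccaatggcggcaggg
Slc25a20, chr9:108661886-108662085, plus strand: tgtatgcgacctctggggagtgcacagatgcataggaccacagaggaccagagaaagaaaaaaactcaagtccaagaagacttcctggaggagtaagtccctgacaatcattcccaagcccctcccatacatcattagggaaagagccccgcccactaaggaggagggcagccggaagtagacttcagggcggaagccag
Slc25a34, chr4:141623885-141624084, minus strand: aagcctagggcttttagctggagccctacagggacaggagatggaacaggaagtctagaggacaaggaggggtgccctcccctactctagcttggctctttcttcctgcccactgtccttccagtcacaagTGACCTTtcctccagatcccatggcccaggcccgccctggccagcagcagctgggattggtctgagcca
Motifs were counted over the whole promoter window of each transcript start, of which the printed 200 bases are only a part. Both strands were searched for AAGGTCA and for GCGCATGC, the core of the site for nuclear respiratory factor 1 (NRF1), and no member window held both. AAGGTCA was in 4.72% of 32851 whole windows and in 1 of 43 windows of the 34 members in the RefSeq table, that of Slc25a34. GCGCATGC was in 2.71% of all windows and in 1 of the 43, that of Slc25a31, the testis ADP/ATP carrier. None of the 11 windows of 8 members that were lower in MI+IgG than in sham held either motif. A match is a description of the letters only.

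The level of the members per transcript length, in RPKM (reads per kilobase of transcript, scaled to library size), was dominated by Slc25a4. Slc25a4 (Entrez 11739, chr8 46207341 to 46211009, mm10), the heart and muscle ADP/ATP carrier ANT1, stood at 5169 ± 153 RPKM in sham (SD, n = 3), 4907 ± 244 in MI+IgG (n = 5) and 5296 ± 263 in MI+FG-3149 (n = 5). It alone made up 65.8 to 67.8%, 69.2 to 71.5% and 70.0 to 71.2% of the summed RPKM of the family in the libraries of the 3 groups. The phosphate carrier Slc25a3 followed at 1160 ± 31.3, 839 ± 45.4 and 913 ± 56.3 RPKM. The oxoglutarate-malate carrier Slc25a11 came next at 389 ± 7.12, 359 ± 18.7 and 375 ± 11.6 RPKM. Slc25a5, the ADP/ATP carrier ANT2 of most tissues, stood at 251 ± 16.7, 227 ± 10.0 and 224 ± 10.5 RPKM. Slc25a20 stood at 153 ± 2.03, 101 ± 6.45 and 114 ± 11.6 RPKM. These first ranks were separated by more than the spread between libraries in every group. Below them Slc25a12 (101 ± 3.07, 84.0 ± 5.59 and 88.3 ± 5.49 RPKM), Slc25a34 (89.9 ± 4.37, 87.4 ± 6.58 and 89.8 ± 1.85) and Slc25a39 (84.4 ± 0.898, 78.5 ± 2.84 and 76.8 ± 2.10) were neighbours. Slc25a12 and Slc25a34 overlapped in both infarcted groups, and Slc25a34 and Slc25a39 overlapped in sham. The lowest level among the tested members was that of Slc25a14, an uncoupling-protein-like carrier, at 1.69 RPKM in sham.

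**Figure D1:**
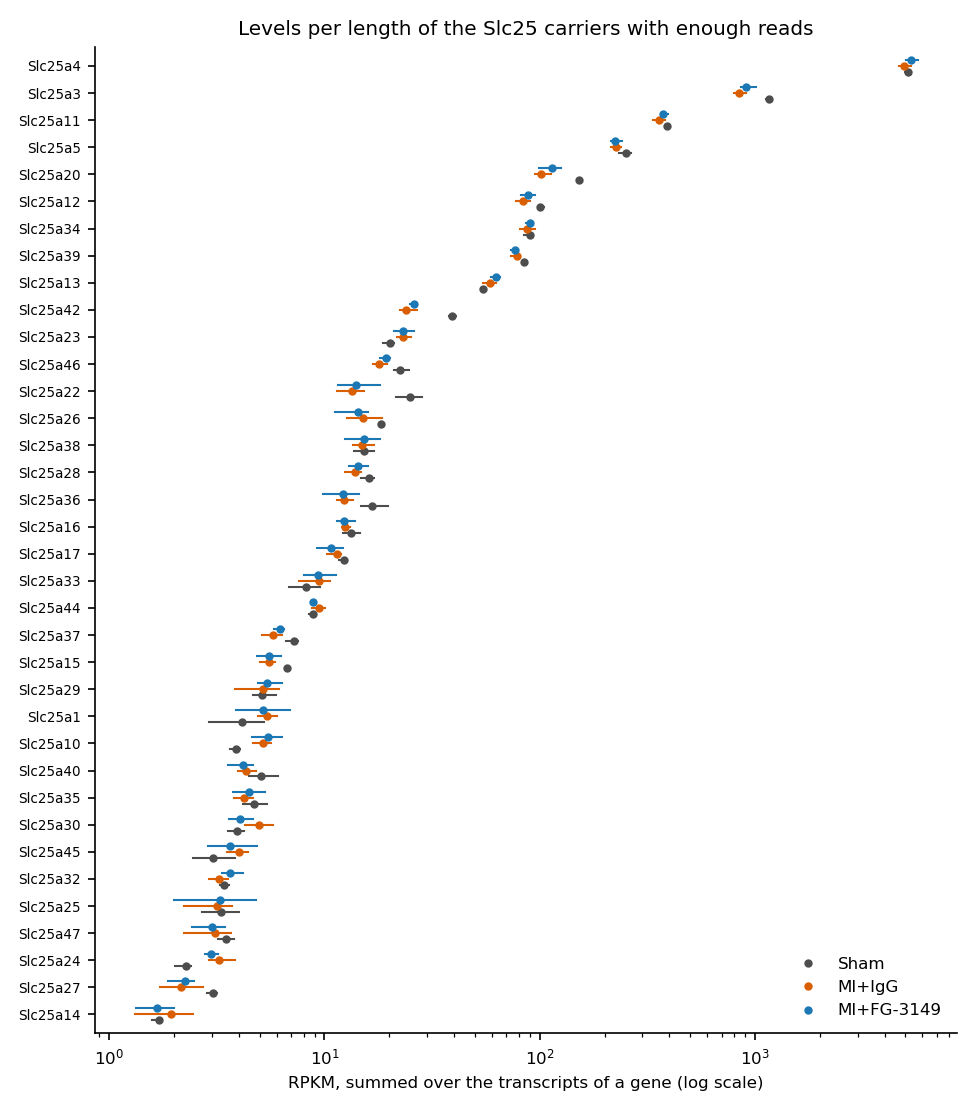
Level of members with enough reads in RPKM (log axis), with a point for the mean of each group and a bar from its lowest to its highest library. Slc25a4 is highest in all groups, with a sham mean of 5169 RPKM, and Slc25a14 is lowest, at 1.69.

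All members together took 1.028 to 1.056% of the estimated reads in sham, 0.893 to 0.980% in MI+IgG and 0.956 to 1.063% in MI+FG-3149. With Slc25a4 left out, the shares were 0.461 to 0.478%, 0.3745 to 0.412% and 0.396 to 0.431%. Every infarcted library was thus below every sham library once the most abundant member was set aside, whereas with it the MI+FG-3149 libraries overlapped sham. The share without Slc25a4 is weighted by Slc25a3, with means of 1757, 1256 and 1395 CPM in the 3 groups. It therefore does not show that members fell alike.

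The comparison of MI+IgG with sham addresses what remote myocardium looks like after infarction without the CTGF antibody. The labels give sham no antibody, so ligation and antibody injection cannot be told apart when either infarcted group is set against sham. Levels of members fell more often than they rose. Of the 37 tested members, 12 were lower (32.4%) and 3 were higher (8.11%), with edgeR's quasi-likelihood test at an adjusted p under 0.05. Over all 13434 genes tested, 15.9% were lower and 17.8% were higher. The median log2 fold change was −0.12 over members and −0.001 over all genes. For all 15 called members the libraries of the 2 groups did not overlap. They also did not overlap for Slc25a11, Slc25a30 and Slc25a39, which were not called. Over all genes tested, the libraries of these groups did not overlap for 35.8%.

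**Figure D2:**
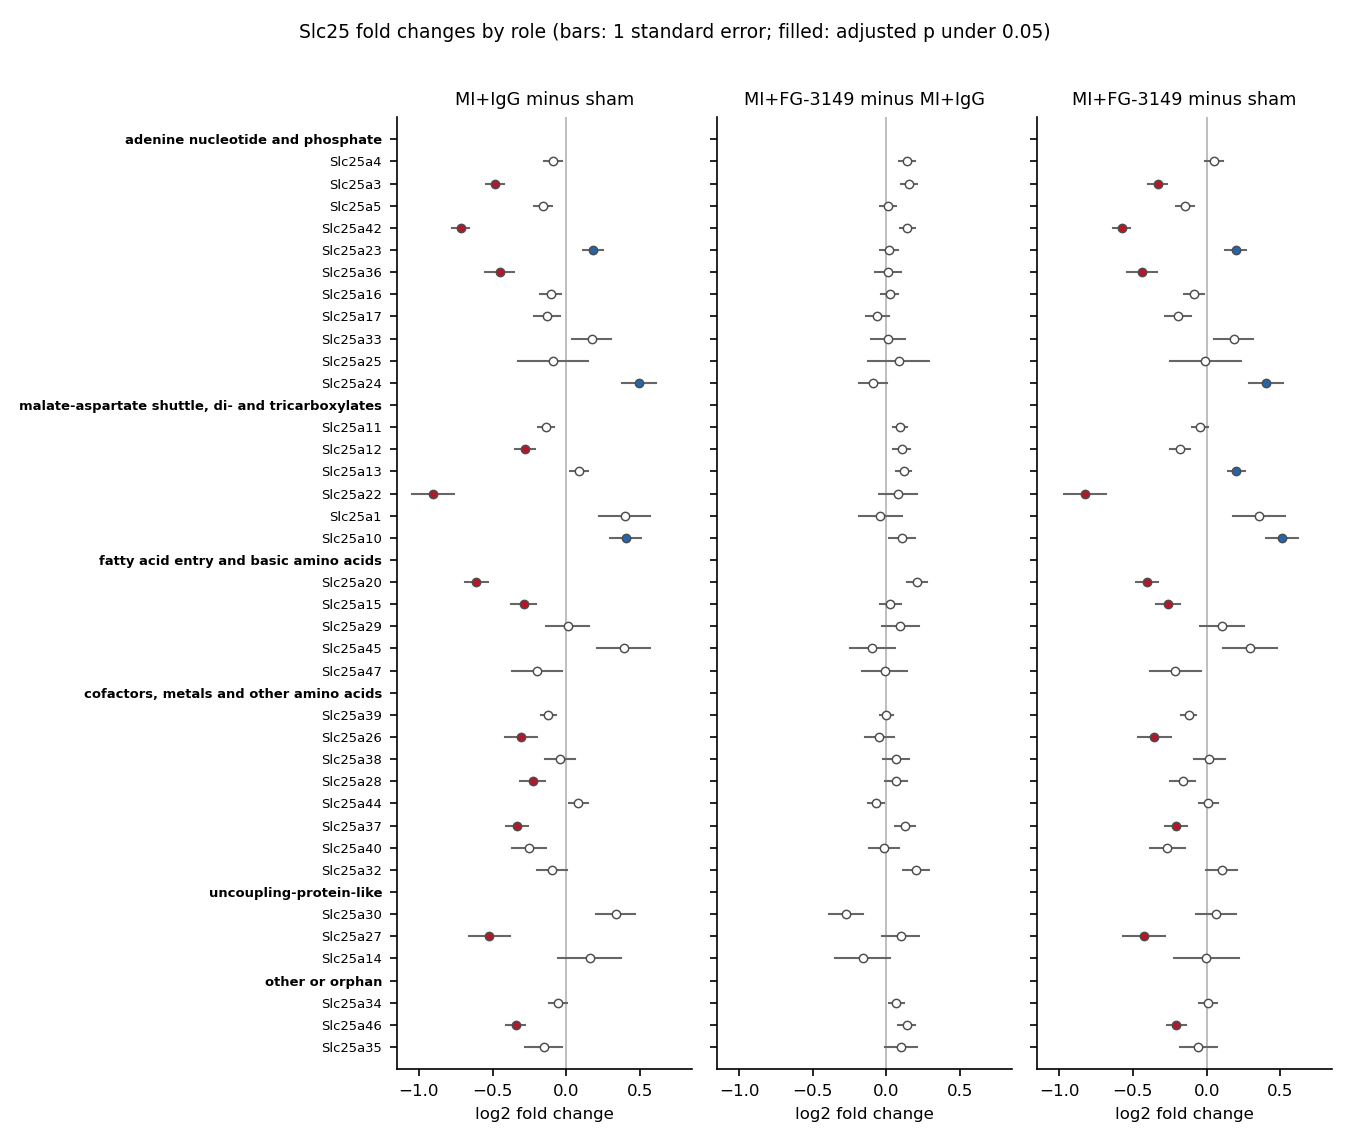
Log2 fold change of tested members (points, with bars of 1 SE) in MI+IgG against sham, MI+FG-3149 against MI+IgG and MI+FG-3149 against sham. Red filled points are called lower, blue filled points are called higher and white points are not called, so the middle comparison holds white points only.

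Among the 11 tested carriers of adenine nucleotides, phosphate and related nucleotides, 3 fell and 2 rose. These are 27.3% and 18.2%, against 15.9% lower and 17.8% higher over all genes. The share that rose was near that of all genes. Each role holds few genes, so a single gene shifts its share widely. The phosphate carrier Slc25a3 (Entrez 18674, chr10 91116578 to 91123963), which supplies phosphate for ATP synthesis, stood at 1742, 1829 and 1700 CPM in sham. It stood at 1359, 1190, 1271, 1231 and 1227 CPM in MI+IgG and at 1302, 1336, 1574, 1382 and 1381 in MI+FG-3149. All infarcted libraries lay below all sham libraries. Its log2 fold change in MI+IgG against sham was −0.49 (SE 0.06, edgeR adjusted p = 1.26e-05).

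The largest fall of this group was that of Slc25a42 (Entrez 73095, chr8 70184340 to 70212281), which carries coenzyme A into the matrix and whose promoter is printed above. Its levels were 129, 122 and 121 CPM in sham, 84.4, 70.7, 75.5, 73.5 and 73.4 in MI+IgG and 85.3, 77.2, 83.5, 85.9 and 84.3 in MI+FG-3149. Every infarcted library lay well below the sham range. The log2 fold change in MI+IgG against sham was −0.72 (SE 0.06, edgeR adjusted p = 1.60e-07), a level 0.608 times that of sham.

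Slc25a36 (Entrez 192287, chr9 97077011 to 97111041), a carrier of pyrimidine nucleotides, was at 60.0, 47.8 and 45.2 CPM in sham and at 40.9, 37.1, 35.2, 36.1 and 37.3 in MI+IgG. In MI+FG-3149 it was at 41.0, 43.2, 31.1, 35.5 and 37.0 CPM. The first sham library was high and the infarcted groups overlapped each other. The log2 fold change in MI+IgG against sham was −0.45 (SE 0.10, edgeR adjusted p = 0.0019). The other pyrimidine nucleotide carrier, Slc25a33, did not pass the test, with 12.7, 18.1 and 15.6 CPM in sham, 19.7, 14.2, 17.6, 18.6 and 17.6 in MI+IgG and 15.9, 14.7, 18.1, 21.7 and 17.8 in MI+FG-3149. Its 3 groups overlapped.

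The members that rose in this group were calcium-regulated carriers that exchange ATP-Mg for phosphate. Slc25a24 (Entrez 229731, chr3 109123149 to 109168409) went from 8.03, 6.98 and 8.12 CPM in sham to 9.73, 12.8, 11.2, 9.96 and 10.3 in MI+IgG, and was at 9.49, 9.39, 10.0, 10.9 and 11.1 in MI+FG-3149. The infarcted libraries lay above the sham libraries. Its log2 fold change in MI+IgG against sham was 0.49 (SE 0.12, edgeR adjusted p = 0.00289). Slc25a23, at 62.6, 71.6 and 70.4 CPM in sham, 74.8, 74.7, 73.4, 82.0 and 82.4 in MI+IgG and 83.3, 86.0, 75.7, 74.2 and 72.0 in MI+FG-3149, had a log2 fold change of 0.18 (SE 0.07, edgeR adjusted p = 0.0496). The gap between its groups was small beside the range within them. The third member of this kind with enough reads, Slc25a25, overlapped across groups at 9.14, 13.5 and 10.7 CPM in sham, 12.2, 12.3, 7.63, 10.4 and 9.91 in MI+IgG and 16.1, 13.4, 9.01, 6.88 and 9.84 in MI+FG-3149.

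The ADP/ATP carriers did not pass the edgeR test, Slc25a5 by a narrow margin. Slc25a4 was at 5486, 5872 and 5827 CPM in sham, 5419, 5186, 5881, 5179 and 5215 in MI+IgG and 5618, 5495, 6527, 5962 and 6011 in MI+FG-3149. Its sham and MI+IgG libraries overlapped through the third MI+IgG library, and the log2 fold change was −0.09 (SE 0.06, edgeR adjusted p = 0.27). Slc25a5 (Entrez 11740, chrX 36795652 to 36798806) was at 328, 317 and 288 CPM in sham, 262, 288, 279, 264 and 297 in MI+IgG and 268, 272, 307, 286 and 270.2 in MI+FG-3149. Its log2 fold change in MI+IgG against sham was −0.16 (SE 0.06, edgeR adjusted p = 0.0502). It was called lower with voom (adjusted p = 0.0499), RLE factors (0.0469), DESeq2 (0.0403) and the 5′ part of the exons (0.0253), and without sham replicate 3, MI+IgG replicate 5 or MI+FG-3149 replicate 3 (0.0275 to 0.0321). The remaining carriers of the group, Slc25a16 and the peroxisomal Slc25a17, had log2 fold changes of −0.11 and −0.13 and were not called. How reads shared by the near-identical ADP/ATP carriers were divided is not given in the sources used here, so their separate levels are uncertain.

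**Figure D3:**
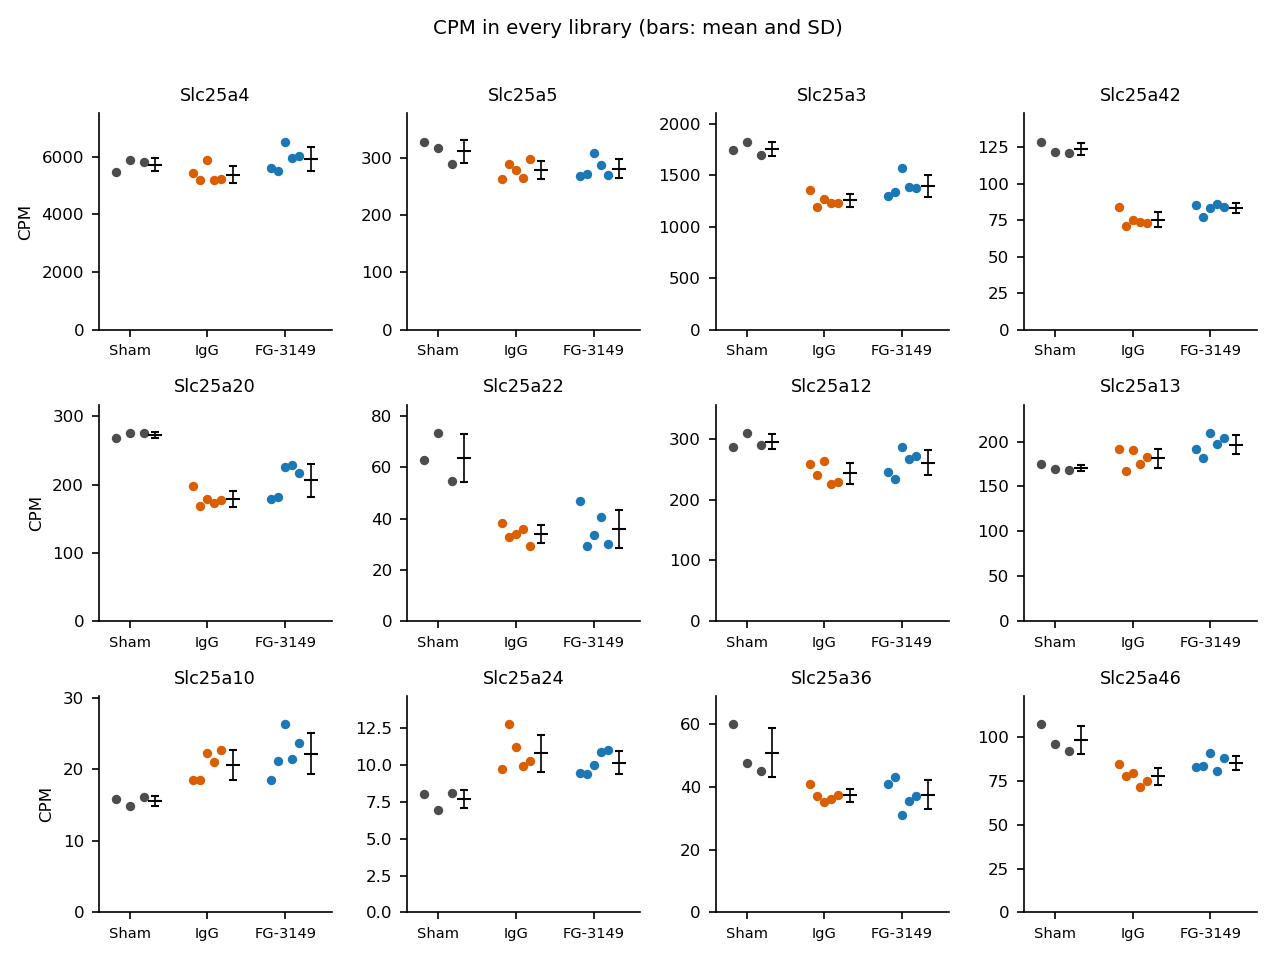
Level in CPM of the members that the results turn on, with a point for each library of sham, MI+IgG (IgG) and MI+FG-3149 (FG-3149) and bars for the group mean and SD. Slc25a42, Slc25a20, Slc25a22 and Slc25a3 separate sham from both infarcted groups, whereas Slc25a4 overlaps.

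Of 6 tested carriers of the malate-aspartate shuttle and of di- and tricarboxylates, 2 fell and 1 rose. These are 33.3% and 16.7%, against 15.9% and 17.8% of all genes, so the share that rose was again near background. Slc25a22 (Entrez 68267, chr7 141429749 to 141437874), a glutamate carrier, fell most of all members. It was at 62.8, 73.4 and 54.8 CPM in sham, 38.3, 32.7, 33.8, 36.1 and 29.2 in MI+IgG and 46.7, 29.3, 33.7, 40.7 and 30.0 in MI+FG-3149. The lowest sham library was above the highest infarcted library. Its log2 fold change in MI+IgG against sham was −0.91 (SE 0.14, edgeR adjusted p = 0.000287), a level 0.534 times that of sham. Between 90.7 and 99.1% of its RPKM lay on a single annotated transcript, whose own 64-base first exon carried 0.609 estimated reads over all 13 libraries, so these data do not show where its transcripts start.

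Slc25a12 (Entrez 78830, chr2 71274295 to 71367554), the aspartate-glutamate carrier Aralar of heart, muscle and brain, was at 286, 309.8 and 289.6 CPM in sham and at 258, 240.5, 264, 225 and 228 in MI+IgG. In MI+FG-3149 it was at 246, 234, 287, 267 and 272 CPM, where the third library reached into the sham range. The log2 fold change in MI+IgG against sham was −0.28 (SE 0.07, edgeR adjusted p = 0.00384). Its paralog Slc25a13 (Entrez 50799, chr6 6041218 to 6217173), known as citrin and best known from liver, was at 174, 169.9 and 168 CPM in sham, 192, 167, 191, 175 and 183 in MI+IgG and 192, 182, 209.7, 197 and 204 in MI+FG-3149. It was not called in MI+IgG against sham, with a log2 fold change of 0.09 (SE 0.06, edgeR adjusted p = 0.265). Its RPKM summed over 2 transcripts had means of 54.7 in sham and 58.7 in MI+IgG. The alternative test on RPKM took only the highest transcript of each gene, which for Slc25a13 had means of 38.4 and 35.8 RPKM, and gave −0.11, also not called.

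Slc25a11 (Entrez 67863, chr11 70644027 to 70647039), the oxoglutarate-malate carrier of the same shuttle, was at 718, 749.8 and 709 CPM in sham, 701, 637, 693, 646 and 628 in MI+IgG and 682, 678, 757, 714 and 694 in MI+FG-3149. Sham and MI+IgG did not overlap, but the log2 fold change of −0.13 did not pass the test (SE 0.05, edgeR adjusted p = 0.0621). It was called lower with DESeq2 (adjusted p = 0.0341), in the 5′ part of the exons (0.0433), and without MI+IgG replicate 1 (0.0333) or MI+FG-3149 replicate 3 (0.0389). The dicarboxylate carrier Slc25a10 (Entrez 27376, chr11 120491837 to 120501161), which exchanges malate or succinate for phosphate, rose. It was at 15.8, 14.8 and 16.2 CPM in sham, 18.4, 18.5, 22.3, 21.1 and 22.7 in MI+IgG and 18.5, 21.2, 26.3, 21.4 and 23.7 in MI+FG-3149. All infarcted libraries were above all sham libraries, and the log2 fold change in MI+IgG against sham was 0.40 (SE 0.11, edgeR adjusted p = 0.00706). The citrate carrier Slc25a1 was not called, with a log2 fold change of 0.40 (SE 0.17, edgeR adjusted p = 0.0896) at 4.94 to 8.74 CPM in sham and 8.30 to 9.97 in MI+IgG.

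Of 5 tested carriers for fatty acid entry and basic amino acids, 2 fell (40.0%, against 15.9% of all genes) and none rose. Slc25a20 (Entrez 57279, chr9 108662098 to 108684641), which brings acylcarnitines into the matrix for β-oxidation and whose promoter is printed above, was at 268, 275 and 276 CPM in sham. It was at 198, 168, 178, 173 and 178 CPM in MI+IgG and at 178, 182, 225, 229 and 217 in MI+FG-3149. The sham libraries were close together and lay above all others, whereas the MI+FG-3149 libraries fell into lower and higher values, of which the lower were within the MI+IgG range. The log2 fold change in MI+IgG against sham was −0.61 (SE 0.08, edgeR adjusted p = 1.23e-05). The ornithine carrier Slc25a15 fell by 0.29 on the log2 scale (SE 0.08, edgeR adjusted p = 0.0105), from 23.2 ± 0.598 CPM in sham (SD, n = 3) to 19.0 ± 1.14 in MI+IgG (n = 5). The basic amino acid carrier Slc25a29 was at 9.12 to 11.6 CPM in sham and 7.41 to 12.1 in MI+IgG and did not pass the test. Neither did Slc25a45, at 4.54 to 7.04 and 6.36 to 8.14 CPM (log2 fold change 0.39, SE 0.18, edgeR adjusted p = 0.105), nor Slc25a47, at 5.05 to 5.96 and 3.49 to 5.84 CPM.

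Of 9 tested carriers of cofactors, metals and other amino acids, 3 fell (33.3%, against 15.9% of all genes) and none rose. The mitoferrins, which bring iron into mitochondria, were both lower. Slc25a37 fell by 0.34 on the log2 scale (SE 0.07, edgeR adjusted p = 0.00195), from 27.6 to 31.8 CPM in sham to 21.5 to 26.1 in MI+IgG. Slc25a28 fell by 0.23 (SE 0.08, edgeR adjusted p = 0.0404), from 22.5 to 25.9 CPM to 19.3 to 22.5. The S-adenosylmethionine carrier Slc25a26 was at 35.9, 35.8 and 35.2 CPM in sham, 35.2, 27.2, 26.2, 30.9 and 24.7 in MI+IgG and 30.9, 28.6, 27.7, 30.4 and 21.9 in MI+FG-3149. Its first MI+IgG library was at the edge of the sham range, and the log2 fold change was −0.31 (SE 0.11, edgeR adjusted p = 0.0397). Those not called included the glutathione carriers Slc25a39 and Slc25a40, the folate carrier Slc25a32, the glycine carrier Slc25a38 and the branched-chain amino acid carrier Slc25a44, which had log2 fold changes between −0.25 and 0.08 and did not pass the test.

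Among the 3 uncoupling-protein-like members, Slc25a27 fell. It was at 7.63, 8.47 and 8.45 CPM in sham, 5.52, 5.18, 4.64, 7.13 and 6.07 in MI+IgG and 6.67, 6.26, 5.73, 6.70 and 5.12 in MI+FG-3149, with a log2 fold change in MI+IgG against sham of −0.52 (SE 0.14, edgeR adjusted p = 0.00755). Every infarcted library was below every sham library for this low-level member. Slc25a30 was at 6.16 to 7.15 CPM in sham, 7.19 to 9.91 in MI+IgG and 6.16 to 8.09 in MI+FG-3149. Its MI+IgG libraries lay above sham, but the log2 fold change of 0.34 was not called (SE 0.13, edgeR adjusted p = 0.0559). Slc25a14 was at 2.40 to 2.71 CPM in sham and overlapped the other groups. Slc25a46, an outer-membrane protein that takes part in mitochondrial fission and fusion, was at 107.2, 95.8 and 92.1 CPM in sham, 84.4, 77.5, 79.5, 71.3 and 74.8 in MI+IgG and 83.0, 83.6, 90.7, 80.6 and 88.2 in MI+FG-3149. Its log2 fold change in MI+IgG against sham was −0.34 (SE 0.06, edgeR adjusted p = 0.000446). The orphan carriers Slc25a34, whose promoter held the ERR motif, and Slc25a35 did not pass the test, with log2 fold changes of −0.06 and −0.15. Slc25a34 was at 226 to 250.4 CPM in sham, 219 to 257 in MI+IgG and 237 to 249.7 in MI+FG-3149, so its groups overlapped.

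In 25 alternative analyses, Slc25a3, Slc25a12, Slc25a20, Slc25a22 and Slc25a42 were called lower each time. The calls of Slc25a23, Slc25a26 and Slc25a28 depended on the method and on single libraries. Slc25a23 was not called with voom, RLE factors, no filter on low counts, DESeq2, either RPKM scale or either part of the exons (adjusted p from 0.0518 to 0.387). Slc25a26 and Slc25a28 were not called without TMM factors, on either RPKM scale or in the 5′ part of the exons, and Slc25a28 also without a filter and in the 3′ part (adjusted p from 0.0505 to 0.429). Slc25a23 lost its call without sham replicate 1, 2 or 3, MI+IgG replicate 4 or 5, or MI+FG-3149 replicate 1 or 4 (edgeR adjusted p from 0.0511 to 0.252). Slc25a26 lost it without sham replicate 1, 2 or 3, MI+IgG replicate 2, 3 or 5, or MI+FG-3149 replicate 2 (0.0505 to 0.107), and Slc25a28 without sham replicate 2 or 3 or MI+IgG replicate 3, 4 or 5 (0.056 to 0.154). With the replicate number as a block, Slc25a23 and Slc25a28 were not called (edgeR adjusted p = 0.0834 and 0.117).

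The comparison of MI+FG-3149 with MI+IgG addresses what the CTGF antibody changed in infarcted hearts. None of the 37 members was called by edgeR in either direction, against a background of 0.916% of all genes higher and 0.156% lower. At an unadjusted p under 0.05 there were 8 members (21.6%), against 13.8% of all genes, and voom and DESeq2 also called 0. The fold change was above 0 for 26 members and below 0 for 11, with a median of 0.06 on the log2 scale over members and −0.012 over all genes. Since the MI+IgG libraries enter both this comparison and the one with sham, opposite signs in the 2 are not independent. A difference that misses the threshold does not show equal levels.

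Slc25a20 had a log2 difference of 0.21 (SE 0.07, edgeR adjusted p = 0.164), with mean levels of 179 ± 11.2 CPM in MI+IgG and 206 ± 24.2 in MI+FG-3149 (SD, n = 5 each). For Slc25a3 the difference was 0.15 (SE 0.05, edgeR adjusted p = 0.207), with means of 1256 ± 64.8 and 1395 ± 106 CPM. Slc25a42 differed by 0.14 (SE 0.05, edgeR adjusted p = 0.22), with means of 75.5 ± 5.25 and 83.3 ± 3.49 CPM. It was called only when MI+IgG replicate 1, the highest library of its group, was left out (0.19, edgeR adjusted p = 0.0488). Slc25a4 differed by 0.14 (SE 0.05, edgeR adjusted p = 0.251), from 5376 ± 299 to 5923 ± 403 CPM. In each of these 4 members the libraries of the 2 groups overlapped. Slc25a22, the member with the largest fall against sham, differed by 0.08 (edgeR adjusted p = 0.843). The largest log2 difference below 0 was that of Slc25a30, at −0.27 (SE 0.11, edgeR adjusted p = 0.287).

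MI+FG-3149 was also set against sham, where 10 of 37 members were lower (27.0%) and 4 were higher (10.8%) by edgeR, against 13.9% lower and 15.6% higher over all genes. The median log2 fold change was −0.06 over members and −0.001 over all genes. The sham libraries are the same as in the comparison of MI+IgG with sham, so the comparisons are given side by side and are not independent. Slc25a22 fell by 0.82 (SE 0.14, edgeR adjusted p = 0.000912), beside −0.91 for MI+IgG. Slc25a42 fell by 0.58 (SE 0.06, edgeR adjusted p = 3.51e-06), beside −0.72. Slc25a20 fell by 0.40 (SE 0.08, edgeR adjusted p = 0.000834), beside −0.61, and Slc25a3 by 0.33 (SE 0.06, edgeR adjusted p = 0.000663), beside −0.49. These are the glutamate, coenzyme A, acylcarnitine and phosphate carriers.

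Other members lower than sham in MI+FG-3149 were Slc25a36 (−0.44), Slc25a27 (−0.43), Slc25a26 (−0.35), Slc25a15 (−0.26), Slc25a37 (−0.21) and Slc25a46 (−0.21), with edgeR adjusted p between 0.00333 and 0.0437. Aralar, Slc25a12, was not called, with a log2 fold change of −0.18 (SE 0.07, edgeR adjusted p = 0.0567). It was called lower without TMM factors (adjusted p = 0.0245), on both RPKM scales (0.035 and 0.0352), in the 5′ part of the exons (0.00878) and without MI+FG-3149 replicate 3 (0.021). The dicarboxylate carrier Slc25a10 rose by 0.51 (SE 0.11, edgeR adjusted p = 0.0019), the highest log2 fold change of the comparison. Slc25a24 rose by 0.40 (SE 0.12, edgeR adjusted p = 0.0156) and Slc25a23 by 0.20 (SE 0.07, edgeR adjusted p = 0.0399). Citrin, Slc25a13, rose by 0.20 (SE 0.06, edgeR adjusted p = 0.0138), and all its MI+FG-3149 libraries were above all sham libraries. Its summed RPKM did not overlap either, at 53.6 to 56.3 in sham and 59.5 to 65.0 in MI+FG-3149. Its highest transcript alone was at 33.0 to 41.6 and 32.7 to 50.5 RPKM and was not called (adjusted p = 0.396 with limma on log2(RPKM + 1)).

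Slc25a3, Slc25a10, Slc25a20, Slc25a22 and Slc25a42 kept their calls against sham in all 25 alternatives. The counts changed when single libraries were left out. Without sham replicate 2 there were 1 higher and 6 lower members, without sham replicate 3 there were 2 higher, and without sham replicate 1 there were 5 lower. Without MI+FG-3149 replicate 5 there were 7 lower. Sham has only 3 libraries, and shares of all genes under these omissions are not given here. Slc25a13 lost its call without sham replicate 2 or 3 (edgeR adjusted p = 0.0535 and 0.0521), Slc25a24 without sham replicate 2 (0.0914), Slc25a46 without sham replicate 1 (0.158) and Slc25a26 without any 1 of the 3 sham libraries (0.0615 to 0.0736). Slc25a15 and Slc25a27 lost it without sham replicate 1, 2 or 3 or MI+FG-3149 replicate 5, and Slc25a27 also without MI+FG-3149 replicate 3 (edgeR adjusted p from 0.0514 to 0.104). Slc25a23 lost it without sham replicate 1, 2 or 3 or MI+FG-3149 replicate 1 or 2 (0.0521 to 0.209), and Slc25a37 without sham replicate 1 or 2, MI+IgG replicate 2 or 4 or any MI+FG-3149 replicate (0.0505 to 0.19). With the replicate number as a block, Slc25a15, Slc25a23 and Slc25a46 were not called (edgeR adjusted p = 0.0686, 0.0692 and 0.0585). The method mattered too. Slc25a37 lost its call with no filter, DESeq2, either RPKM scale or either part of the exons (adjusted p from 0.0589 to 0.905). Slc25a23 lost it without TMM factors, on either RPKM scale or in the 3′ part (0.0709 to 0.602). Slc25a13 lost it on either RPKM scale or in the 5′ part (0.0784 to 0.402). Slc25a15 and Slc25a27 lost it in either part, Slc25a24 in the 3′ part, and Slc25a26 and Slc25a36 in the 5′ part.

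The balance between the ADP/ATP carriers was measured as the log2 ratio of Slc25a4 to Slc25a5 in RPKM within each library. It was 4.23, 4.38 and 4.50 in sham, 4.53, 4.33, 4.56, 4.45 and 4.30 in MI+IgG and 4.55, 4.50, 4.57, 4.54 and 4.64 in MI+FG-3149. Slc25a4 was thus 18.7 to 22.6 times, 19.6 to 23.6 times and 22.6 to 24.9 times as abundant as Slc25a5. The difference between MI+FG-3149 and sham was 0.19 (SE 0.08, 2-sided exact permutation p = 0.0357, adjusted over 3 comparisons 0.0953). It was 0.13 between MI+FG-3149 and MI+IgG (SE 0.06, exact permutation p = 0.0635, adjusted 0.0953) and 0.07 between MI+IgG and sham (SE 0.10, exact permutation p = 0.5, adjusted 0.5). None passed the threshold after adjustment. The smallest p such tests can give is 0.0179 for 3 against 5 libraries and 0.00794 for 5 against 5.

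**Figure D4:**
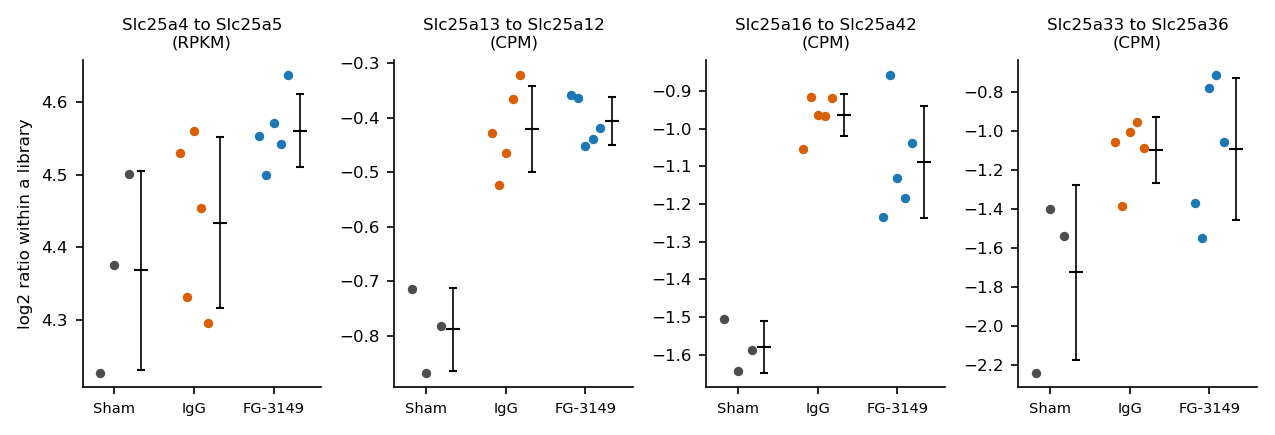
Log2 ratio of paired carriers within each library (points) of sham, MI+IgG (IgG) and MI+FG-3149 (FG-3149), with bars for the group mean and SD. The ratio of Slc25a4 to Slc25a5 overlaps between groups, and the ratio of Slc25a13 to Slc25a12 is higher in all infarcted libraries than in all sham libraries.

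Ratios of other related carriers were chosen after their fold changes had been seen and are given as values with no test, in CPM. The log2 ratio of citrin to Aralar (Slc25a13 to Slc25a12) was −0.71, −0.87 and −0.78 in sham. It was −0.43, −0.52, −0.47, −0.37 and −0.32 in MI+IgG and −0.36, −0.36, −0.45, −0.44 and −0.42 in MI+FG-3149. Reads of the 2 aspartate-glutamate carriers were closer to equal in both infarcted groups, with no overlap with sham. The ratio of Slc25a16, a carrier linked to coenzyme A, to Slc25a42 had means of −1.58 in sham, −0.96 in MI+IgG and −1.09 in MI+FG-3149, also with no overlap of infarcted and sham libraries. The ratio of Slc25a33 to Slc25a36 had means of −1.73, −1.10 and −1.09, and its MI+FG-3149 libraries overlapped sham.

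Slc25a3 is made with either of a pair of mutually exclusive exons, and the share of the pair was not analysed here, since the exon entries used held 1 of them (chr10 91121922 to 91122043, mm10). Its reads per base were set against each flanking exon, a measure chosen after seeing the data. Relative to the upstream exon they were 33.3 to 35.1% in sham, 24.7 to 30.4% in MI+IgG and 17.4 to 22.2% in MI+FG-3149. Relative to the downstream exon they were 5.04 to 5.97%, 5.52 to 7.6% and 8.03 to 9.16%. MI+FG-3149 thus lay apart from the other groups in both measures, but in opposite directions. Against both flanking exons pooled the values were 8.2 to 9.56%, 8.69 to 11.49% and 11.23 to 12.3%, and against their geometric mean 13.05 to 14.47%, 12.53 to 15.14% and 12.28 to 13.89%. The order of the groups depended on the reference exon, so no difference in the use of the exon is read from these values.

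Since the share of reads in the 5′ part of transcripts differed between groups, the tests were repeated on the reads of the 5′ part and of the 3′ part of the exons separately, a choice made after seeing the data. Of the 15 members called in MI+IgG against sham, all kept their direction in both parts and 5 were called in both: Slc25a3, Slc25a12, Slc25a20, Slc25a22 and Slc25a42. Of the 14 called in MI+FG-3149 against sham, 12 kept their direction in both parts and 5 were called in both: Slc25a3, Slc25a10, Slc25a20, Slc25a22 and Slc25a42. The 2 that changed direction were Slc25a37 and Slc25a46.

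**Figure D5:**
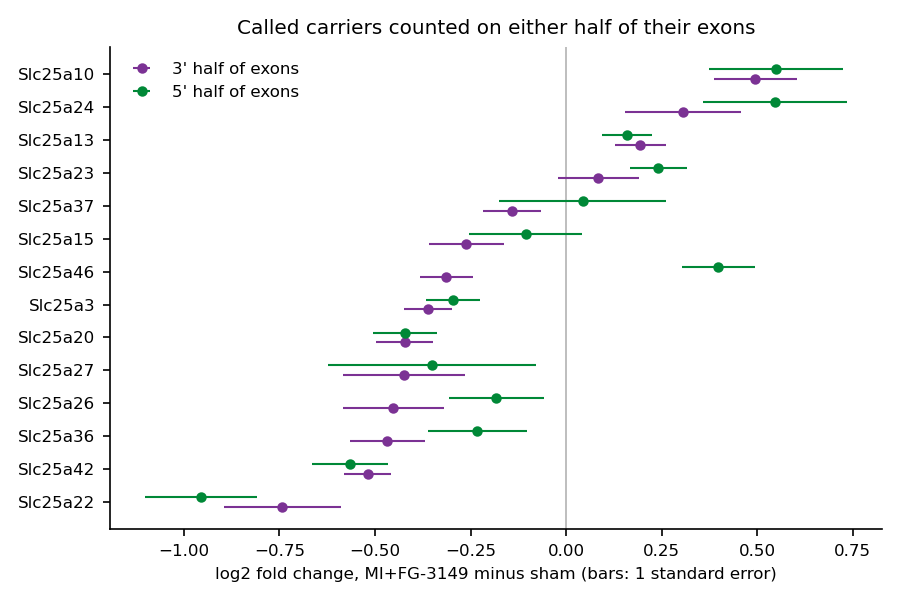
Log2 fold change in MI+FG-3149 against sham of the 14 members called there, from reads of the 5′ part and of the 3′ part of the exons (points, with bars of 1 SE). Slc25a46 is above 0 in the 5′ part and below 0 in the 3′ part.

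Slc25a46 showed the parts of a transcript moving in opposite directions. Its 5′ part held 15.7 to 16.6% of its reads in sham, 18.2 to 24.8% in MI+IgG and 26.5 to 29.5% in MI+FG-3149, with no overlap between any of the groups. In MI+FG-3149 against sham the 5′ part was higher by 0.40 (SE 0.10, edgeR adjusted p = 0.00322) and the 3′ part lower, at −0.31 (SE 0.07, edgeR adjusted p = 0.00199). Against MI+IgG the 5′ part was higher by 0.47 (SE 0.08, edgeR adjusted p = 0.000454), while the 3′ part differed by 0.06 (edgeR adjusted p = 0.763). In MI+IgG against sham the log2 fold change was −0.07 in the 5′ part (edgeR adjusted p = 0.667) and −0.38 in the 3′ part (edgeR adjusted p = 0.000248). The median 5′ share over 2355 genes moved in the same order between the groups, and its part in these values was not tested. Of the exon bases of Slc25a46, 8.56% overlap the gene B930094E09Rik on the opposite strand. For Slc25a3, the 5′ part held 35.7 to 38.0%, 38.0 to 40.2% and 41.3 to 43.8% of reads, and MI+FG-3149 against MI+IgG gave 0.20 in the 5′ part (SE 0.06, edgeR adjusted p = 0.0439) and 0.13 in the 3′ part (edgeR adjusted p = 0.404).

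Opposite-strand genes also overlap exon bases of Slc25a10 (5.78%), Slc25a23 (4.22%), Slc25a25 (10.2%), Slc25a26 (6.46%), Slc25a33 (15.0%) and Slc25a37 (8.94 and 2.21%, by separate genes). The library kit keeps strand, but the strand setting of the counting is not given in the sources used here, so these levels may include reads of the partner gene.

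Transporters that work beside the SLC25 family were compared through a list of 28 symbols, of which 22 had entries and were tested. Symbols without an entry may stand in the count table under older names. In MI+IgG against sham 10 fell (45.5%, against 15.9% of all genes) and 4 rose by edgeR (18.2%, near the 17.8% of all genes). Those that fell included the carnitine enzymes Crat (−0.54), Cpt2 (−0.47) and Cpt1b (−0.31). Of these, Cpt1b acts before and Cpt2 after Slc25a20 in fatty acid entry. Cpt1a was not called (−0.05). The pyruvate carrier subunit Mpc2 (−0.36) and all 3 outer-membrane channels Vdac3 (−0.32), Vdac1 (−0.21) and Vdac2 (−0.16) also fell. Those that rose included the outer-membrane protein Tspo (0.96), Sfxn3 (0.61) and Ccdc109b (0.61). Ccdc109b is the older symbol of Mcub, a calcium uniporter subunit that the list holds under both names. Its level was low, at 1.625 to 2.07 CPM in sham and 2.24 to 3.27 in MI+IgG. In MI+FG-3149 against MI+IgG, Mpc2 alone was called on this list (4.55% of it, against 0.916% of all genes). It was at 304.6 to 309 CPM in sham, 197.5 to 258.5 in MI+IgG and 286 to 364 in MI+FG-3149, so the infarcted groups did not overlap (log2 0.39, SE 0.07, edgeR adjusted p = 0.0124). Against sham, 7 of the 22 were lower and 3 higher in MI+FG-3149 (31.8 and 13.6%, against 13.9 and 15.6% of all genes).

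Enzymes that use what the carriers move were followed in a list of 15, of which 9 were lower (60.0%, against 15.9% of all genes) and none higher in MI+IgG against sham. They included the malate-aspartate shuttle enzymes Got1 (−0.43), Got2 (−0.26), Mdh1 (−0.23) and Mdh2 (−0.17), the glycerol-phosphate shuttle enzyme Gpd2 (−0.43), citrate synthase Cs (−0.38) and the ATP synthase subunits Atp5a1 (−0.32) and Atp5b (−0.31). In MI+FG-3149 against sham 6 were lower (40.0%, against 13.9% of all genes) and none higher. Cyclophilin D, Ppif, a regulator of the permeability transition that binds near the ADP/ATP carrier, was higher in MI+FG-3149 than in MI+IgG by 0.22 (SE 0.05, edgeR adjusted p = 0.047). It was the only gene of this list called there (6.67% of it, against 0.916% of all genes higher). Of 5 carrier-fold genes with other names, 4 were tested. In each infarcted group 1 was higher and 1 lower than sham, 25.0% each. Over all genes these shares were 17.8 and 15.9% in MI+IgG and 15.6 and 13.9% in MI+FG-3149. Mtch1 was higher by 0.38 in MI+IgG and 0.33 in MI+FG-3149 against sham, and Mtch2 was lower, at −0.24 and −0.22. Ucp2 and Ucp3 were not called. Ucp3 was at −0.57 (SE 0.26, edgeR adjusted p = 0.12) and −0.47 (SE 0.27, edgeR adjusted p = 0.216).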

How the data were processed

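RNA came from 13 libraries of left ventricle (3 sham, 5 MI+IgG, 5 MI+FG-3149). Per the labels' protocols, 500 ng of RNA entered a stranded mRNA kit and single reads of 75 bases were sequenced on a single flow cell. The authors deposited estimated counts per gene, transcript and exon, which need not be whole, and RPKM per transcript. The build is mm10, per the submitters' processing notes. The aligner, the counting tool and its strand setting are not given in the sources used here. Members and lists were chosen with earlier results of these data known. Gene entries repeating a symbol (379, with 0.0% of reads) were left out. Counts were rounded, and genes passing filterByExpr (13434) were tested with edgeR 4.0.16 in R 4.3.3 (TMM factors, robust quasi-likelihood, all libraries in 1 fit, Benjamini-Hochberg over all genes, called under 0.05). CPM are counts scaled to the TMM-adjusted library total. Levels per length are the summed RPKM of a gene's transcripts. Every library's value is given for the 6 highest and 6 lowest called members of each comparison and for a set list that includes the ADP/ATP, phosphate and aspartate-glutamate carriers. The ratio tests were exact permutation tests. Voom (limma 3.58.1) and DESeq2 1.42.0, other factors and filters, limma on log2(RPKM + 1) and log2(RPKM + 0.1) of each gene's highest transcript, a replicate block and leaving out each library were tried. The edgeR script was tested on simulated data. Values of some single genes are not reported here.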

Additional observations from a re-analysis of the deposited data

Results flagged for a closer look

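Of 52 groups of 5 libraries checked for a library far from the others, 1 stood out: Slc25a42 in MI+FG-3149 replicate 2, the lowest of its group at 77.2 CPM. The other 4 libraries lay between 83.5 and 85.9 CPM, and the gap to the nearest made up 0.728 of the whole range. Chance alone gives about 1 such library in 20 groups.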

How the results depend on the processing

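Over 25 alternatives, a chosen 40 of the member fold changes gave 1000 refits. Of these, 879 kept direction and side of the threshold, 98 lost a call, 19 gained a call and 4 changed sign. Outside these 40, changes of method added calls in MI+IgG against sham for Slc25a39 (DESeq2), Slc25a44 (both RPKM scales), Slc25a1 (3′ part) and Slc25a35 (5′ part). Leaving out MI+IgG replicate 1 or MI+FG-3149 replicate 3 gave 4 higher members there, against 3 in the main analysis. In MI+FG-3149 against sham, Slc25a5 and Slc25a39 gained calls without TMM factors, on both RPKM scales and in the 5′ part. With the reads of the 5′ part of exons only, higher members numbered 1 in MI+IgG against sham (3 in the main analysis) and 2 in MI+FG-3149 against MI+IgG (Slc25a3 and Slc25a46; 0 in the main analysis), where leaving out 1 library gave 0 to 1. Higher members in MI+FG-3149 against sham (4) numbered 2 with log2(RPKM + 1), 2 with log2(RPKM + 0.1), 2 with the 3′ part of exons and 1 to 4 when 1 library was left out. Lower members there (10) numbered 5 to 11 when 1 library was left out. The values that changed sign were Slc25a13 in MI+IgG against sham (−0.11 on both RPKM scales, which take only the highest transcript, while its summed RPKM was higher in MI+IgG) and, with the 5′ part of exons in MI+FG-3149 against sham, Slc25a37 (0.044) and Slc25a46 (0.40). The cause was not tested for the exon parts. The log2 ratio of Slc25a4 to Slc25a5 in MI+IgG minus sham ran from −0.0046 (without sham replicate 1) to 0.13, and in MI+FG-3149 minus MI+IgG from 0.092 to 0.159, passing the threshold by exact permutation without MI+IgG replicate 3 (adjusted p = 0.0476). Replicate numbers gave no pairing: over 11 same-numbered pairs the correlation of deviations ran from −0.0424 to 0.178 (median 0.00856, 2 over 0.1). With the replicate number as a block there were 2 higher and 11 lower members in MI+IgG against sham, 0 and 0 in MI+FG-3149 against MI+IgG, and 3 higher and 8 lower in MI+FG-3149 against sham, and the Slc25a4 to Slc25a5 differences were 0.11, 0.13 and 0.17. The share of the mutually exclusive Slc25a3 exons was not run. For the 7 members with too few reads, no difference was detectable at this depth.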
